A study of Mus musculus with 24 samples.

Results

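The genes described here are 43 genes of the contractile apparatus of striated muscle and of the coupling of its electrical excitation to contraction, out of 56422 gene names in the deposited expression table. They were listed by name and grouped by the role of their proteins: 10 of the thin filament, 8 of the thick filament and M-line, 10 of titin and the Z-disc, 10 of calcium handling and excitation-contraction coupling, and 5 of energy and oxygen supply. All 43 were in the table and all 43 passed the filter for testing, that is, they reached 1 TPM in 6 libraries or more, as did 15163 genes in all. TPM is an abundance scaled to transcript length and to a fixed total per library, so it allows for the length of a gene's transcripts, while a level also moves with the other genes of the same library.

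RNA came from 24 mouse samples of peritoneal metastasis labelled as peritoneum, 6 per group. The groups were propionate alone, butyrate alone, propionate and butyrate in combination, and untreated control. Both acids are short-chain fatty acids that gut bacteria make from fibre, and butyrate has the longer carbon chain. Neither the dose and length of treatment nor the mouse strain, age, sex or tumour line is given in the sources used here. Whether each library is from its own animal is not stated, so the p-values reflect only how these libraries vary, and that variation may be technical.

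In the sarcomere, the contractile unit, thick filaments of myosin pull on thin filaments of actin, while titin spans from the Z-disc at the sarcomere's end to the M-line at its centre. Excitation spreads along the fibre membrane to a calcium channel that opens the calcium release channel of the sarcoplasmic reticulum, and the released calcium binds troponin and frees the thin filament for myosin. Slow and fast skeletal muscle fibres use different isoforms of many of these proteins, and the abdominal wall and diaphragm under the peritoneum are skeletal muscle. In bulk RNA of a tissue piece, fewer muscle fibres and less muscle RNA per fibre cannot be told apart.

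Muscle genes share binding sites for a few regulators: E-boxes, bound by the myogenic factors, MEF2 sites, and CArG boxes, bound by serum response factor. RefSeq promoter windows of 300 bases, 250 before to 50 after a gene's start in build GRCm38.p6, matched 31 of the 43 genes by symbol, with 37 windows. The files themselves were made on mm39, so these coordinates belong only to the windows. Both strands were searched, overlapping matches included, for the E-box CANNTG, the TATA box TATAAA, the MEF2 site and the CArG box. MEF2 sites were in 10.81% of the 37 windows (Klhl41, Myoz2, Ttn and Xirp2), against 0.557% of all 32851 windows. CArG boxes were in 13.51% of the windows (Acta1, Ldb3, Myl3 and Myom1), against 1.63% of all windows. The Ldb3 windows overlap and each had a match, so the same site may be counted again. By gene, 4 of the 31 had a CArG box. E-boxes were in 86.49%, against 72.31% of all windows, and TATA boxes in 10.81%, against 13.62%. A match describes letters in the window and shows no binding.

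The 250 bases before the start are shown for Acta1, the most abundant of these genes, and for Klhl41 and Ttn, 2 genes with a MEF2 match, each 5′ to 3′ on its own strand with the match in capitals. In Acta1 (chr8:123894776-123895025, minus strand) the CArG box begins 73 bases before the start, in Klhl41 (chr2:69669870-69670119, plus strand) the MEF2 site begins 63 bases before it, and in Ttn (chr2:76982548-76982797, minus strand) 166 bases before it.
Acta1: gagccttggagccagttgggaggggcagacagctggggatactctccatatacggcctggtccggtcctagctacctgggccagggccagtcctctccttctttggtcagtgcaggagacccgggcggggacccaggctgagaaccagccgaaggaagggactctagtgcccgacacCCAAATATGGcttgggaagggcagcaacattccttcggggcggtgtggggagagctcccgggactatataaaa
Klhl41: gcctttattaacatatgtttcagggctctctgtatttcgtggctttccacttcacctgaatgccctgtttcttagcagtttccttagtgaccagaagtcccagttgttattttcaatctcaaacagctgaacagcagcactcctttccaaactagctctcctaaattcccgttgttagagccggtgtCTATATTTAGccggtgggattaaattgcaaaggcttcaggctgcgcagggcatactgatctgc
Ttn: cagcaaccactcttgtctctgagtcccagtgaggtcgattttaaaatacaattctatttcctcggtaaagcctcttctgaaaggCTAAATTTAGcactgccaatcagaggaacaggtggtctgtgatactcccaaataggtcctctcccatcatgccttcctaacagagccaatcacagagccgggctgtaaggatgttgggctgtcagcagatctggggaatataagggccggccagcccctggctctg

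Combination replicate 5 lacked these genes and is described apart. Its 43 genes summed to 0.0114% of its TPM. All 43 were below their lowest value in the other 23 libraries, 30 were under 1 TPM and 5 were listed at 0. Its highest values were 47.6 TPM of Myl1, 17.3 TPM of Eno3, 9.54 TPM of Tnni2 and 8.18 TPM of Actn2. In this library 9 adipocyte markers summed to 18311 TPM, where the 6 control libraries reached at most 2264 TPM. Its 10 lymphocyte markers summed to 1159 TPM, against at most 25.7 TPM in control. The mesothelial genes Wt1 and Upk3b were at 0 and 0.04 TPM, while the keratins Krt8, Krt18 and Krt19, also on the mesothelium list, were at 123, 191 and 346 TPM. Group values and tests below are without this library, and the main combination results are also given with it.

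In the other 23 libraries the 43 genes together took between 3.58 and 18.2% of all TPM. Their summed share was 11.8 ± 5.63% with propionate (SD, n = 6), 12.2 ± 1.95% with butyrate (n = 6), 11.0 ± 3.88% with the combination (n = 5) and 9.17 ± 3.83% in control (n = 6). The ranges overlapped: 3.58 to 18.2%, 9.15 to 14.2%, 6.62 to 15.2% and 3.58 to 14.4%. With combination replicate 5 the combination mean was 9.18%. Butyrate had the narrowest range, and propionate replicates 3 and 4 and control replicates 2 and 5 were the lowest of their groups.

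The thin filament took the largest part of this share, 5.45 ± 2.58% of TPM with propionate, 5.67 ± 0.882% with butyrate, 5.14 ± 1.73% with the combination and 4.31 ± 1.77% in control. Thick filament genes took 2.53 ± 1.18%, 2.83 ± 0.419% and 2.51 ± 1.00% in the same 3 treated groups and 2.05 ± 0.83% in control. Titin and Z-disc genes had the smallest share in each group, with means of 0.652%, 0.655% and 0.581% in the treated groups and 0.465% in control.

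**Figure D1:**
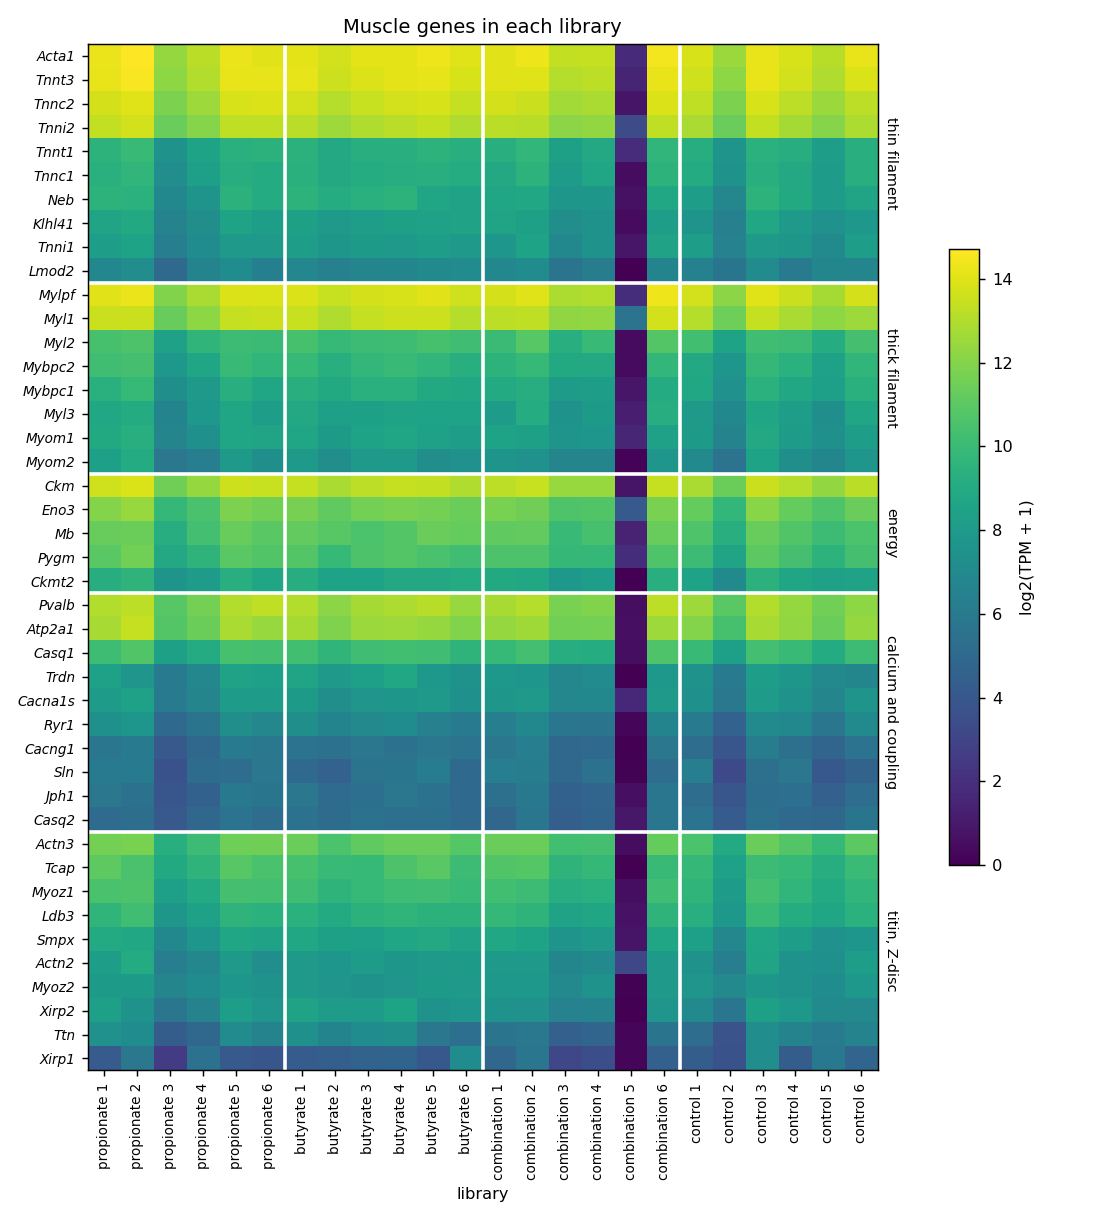
Level of each of the 43 genes as log2(TPM + 1), in colour, with genes down the page grouped by role and all 24 libraries across it by group. Combination replicate 5 is the dark column, with all 43 genes below their lowest value elsewhere, and propionate replicate 3 and control replicate 2 are darker than the rest of their groups in most rows.

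Heart muscle was checked with its own markers. Of 10 cardiac markers, Nkx2-5, a heart transcription factor, was listed at 0 in all 24 libraries, Myl7, an atrial light chain, reached 0.42 TPM in the 23, Nppa, the atrial natriuretic peptide, 0.26 TPM, and Ryr2, the cardiac calcium release channel, 0.24 TPM. Myh6, the fast cardiac myosin, was between 0.12 and 1.66 TPM. The list summed to 10.8 to 40.5 TPM with propionate, 9.79 to 59.1 TPM with butyrate, 10.8 to 30.4 TPM with the combination and 22.1 to 42.1 TPM in control. Its highest single gene was Myl4, an atrial and embryonic light chain, at 4.34 to 36.1 TPM. The cardiac troponins Tnni3 and Tnnt2 and the cardiac Mybpc3 reached 13.8, 15.4 and 19.1 TPM, and Mybpc3 was listed at 0 in 6 of the 23 libraries.

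Markers of the mesothelium, the cell layer that covers the peritoneum, ran opposite to the summed share of the 43 genes. All 9 markers were above 0 in each of the 23 libraries, and they summed to 25.6 to 1337 TPM with propionate, 12.3 to 583 TPM with butyrate, 22.1 to 897 TPM with the combination and 13.2 to 1617 TPM in control. By their marker sums the libraries fell into 2 separate sets, split at 500 TPM. The split was chosen with the values known, and the shares of the 43 genes in the 2 sets overlapped at their edges. In 10 libraries (2 of propionate, 1 of butyrate, 2 of the combination and 5 of control) the markers summed to 583 to 1617 TPM, and the 43 genes took 3.58 to 11.0% of TPM. In the other 13 (4 of propionate, 5 of butyrate, 3 of the combination and 1 of control) the markers summed to 12.3 to 264 TPM, and the 43 genes took 10.8 to 18.2%. These values stand beside every comparison with control below, and their part in those results was not tested. The tumour line is not given, and whether tumour cells of the metastases add to these marker sums was not tested. Smooth muscle markers, 8 in number, summed to 214 to 351 TPM, 236 to 346 TPM and 191 to 373 TPM in the treated groups and 189 to 337 TPM in control.

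Other contents of the libraries varied too, with overlapping ranges between the groups. Adipocyte markers, all 9 above 0 in each of the 23 libraries, summed to 1273 to 2521 TPM with propionate, 1040.1 to 3622 TPM with butyrate, 1339 to 7377 TPM with the combination and 847 to 2264 TPM in control, with means of 3331 TPM with the combination and 1555 TPM in control. Lymphocyte markers summed to 7.82 to 45.8 TPM, 9.19 to 23.8 TPM and 16.9 to 58.1 TPM in the treated groups and 11.8 to 25.7 TPM in control. Mitochondrial transcripts took 14.1 to 24.8% of TPM with propionate, 20.5 to 26.8% with butyrate, 14.9 to 21.7% with the combination and 12.8 to 22.6% in control. The part of these contents in the results was not tested.

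**Figure D2:**
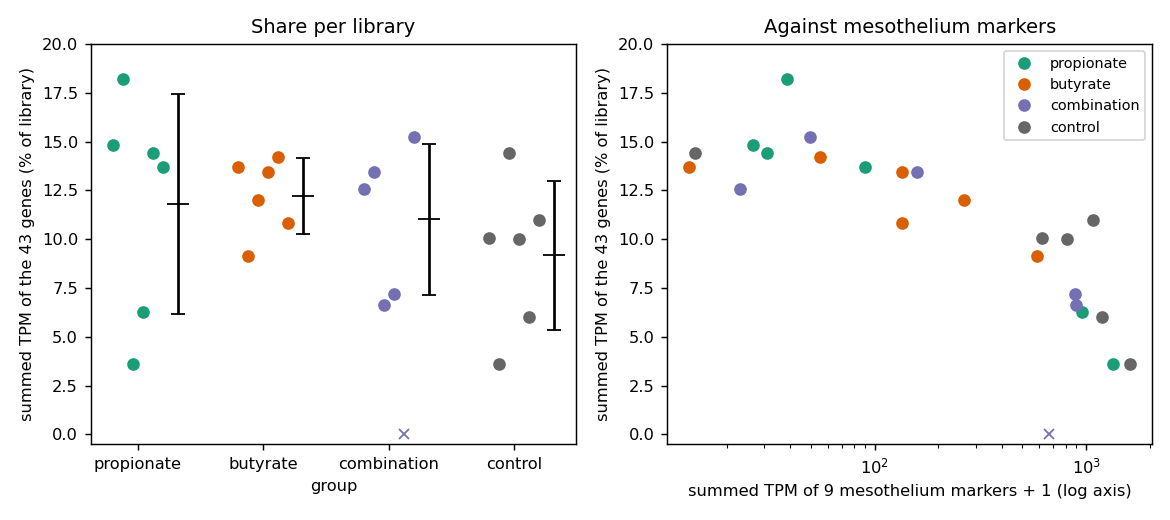
Left, the summed TPM of the 43 genes as a percentage of each library, by group, with mean and SD beside the points; right, the same value against the summed TPM of 9 mesothelium markers plus 1 on a log axis. Combination replicate 5, the cross, is at 0.0114% and is not in the mean or SD; the 10 libraries with 583 TPM or more of the markers are all at 11.0% or less.

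Acta1, the skeletal α-actin of the thin filament, was the most abundant of the 43 genes, with a mean of 15937 TPM over the 23 libraries. In TPM, given throughout as the lowest, median and highest library of a group of 6 and as all 5 libraries of the combination (replicates 1, 2, 3, 4 and 6), Acta1 lay at 5384, 18448 and 26808 TPM with propionate, 13538, 17603 and 20793 TPM with butyrate, 17133, 20797, 10571, 11070.0 and 22685 TPM with the combination and 5696, 14333 and 19475 TPM in control. Every treated range overlapped control. The log2 fold changes of Acta1, on the log2(TPM + 1) scale and with SE, were 0.20 ± 0.35, 0.45 ± 0.35 and 0.32 ± 0.36 with propionate, butyrate and the combination (adjusted p = 0.68, 0.305 and 0.628, limma). Neb encodes nebulin, a giant protein that runs along the thin filament. Neb lay at 118, 595 and 737 TPM with propionate, 357, 599.8 and 737 TPM with butyrate, 396, 451, 217, 222 and 429 TPM with the combination and 109, 337 and 733 TPM in control. Its log2 fold changes were 0.31 ± 0.45, 0.75 ± 0.45 and 0.01 ± 0.47.

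Troponin is the calcium switch of the thin filament, made of the tropomyosin-binding subunit T, the inhibitory subunit I and the calcium-binding subunit C. The fast isoforms Tnnt3, Tnni2 and Tnnc2 were far above the slow isoforms Tnnt1, Tnni1 and Tnnc1 in all 23 libraries. Tnnt3 averaged 15702 ± 7482 TPM with propionate, 16268 ± 2583 TPM with butyrate, 14220.1 ± 4769.8 TPM with the combination and 12176 ± 5087 TPM in control (SD). Tnni2 averaged 8514 ± 4217 TPM with propionate, 8539 ± 1542 TPM with butyrate, 7642 ± 2596 TPM with the combination and 6533 ± 2802 TPM in control. All 3 treated means were above control by less than 1 SD of the propionate libraries. Tnnc2 averaged 11681 ± 5420.1 TPM with propionate, 12148 ± 2226 TPM with butyrate, 11033 ± 3984 TPM with the combination and 8884 ± 3737 TPM in control. The log2 fold changes of the 3 fast genes lay between 0.28 and 0.56 over the comparisons with control. Of the slow isoforms, Tnnt1 averaged 599 ± 279 TPM with propionate, 621 ± 90.2 TPM with butyrate, 619 ± 223 TPM with the combination and 489 ± 189.5 TPM in control. Tnni1 averaged 229 ± 106 TPM with propionate, 256 ± 27.6 TPM with butyrate, 246 ± 112 TPM with the combination and 211 ± 86.2 TPM in control. Tnnc1, which heart uses too, averaged 508 ± 244 TPM with propionate, 571 ± 62.2 TPM with butyrate, 516 ± 201 TPM with the combination and 444 ± 183 TPM in control. The log2 fold changes of these slow genes lay between 0.07 and 0.49, with SEs of 0.35 to 0.39, and every 95% interval spanned 0. The thin filament list was completed by Lmod2, leiomodin 2, which helps actin filaments grow, with group means from 91.3 to 111 TPM, and by Klhl41, which stabilises nebulin, with group means from 225 to 314 TPM. Control had the lowest mean of both.

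In the thick filament, Myl1 and Mylpf are the essential and regulatory light chains of fast myosin, and Myl3 and Myl2 their counterparts in slow fibres and the heart's ventricle. Myl1 lay at 2534, 11417 and 11925 TPM with propionate, 8058, 11134 and 12567 TPM with butyrate, 9678, 9953, 4999.5, 5125 and 13417 TPM with the combination and 2877, 6579 and 11159 TPM in control. The butyrate libraries were tightly grouped in the upper part of the control range and above it, and the log2 fold change with butyrate was 0.76 ± 0.38 (95% interval -0.03 to 1.54). With propionate and the combination it was 0.32 ± 0.38 and 0.37 ± 0.40. Mylpf lay at 3907, 15286 and 19926 TPM with propionate, 11177, 14224 and 16941 TPM with butyrate, 14117, 16280.4, 7674, 8159.7 and 20319 TPM with the combination and 4475, 12445 and 16334 TPM in control. Its changes were 0.18 ± 0.37, 0.48 ± 0.37 and 0.30 ± 0.39. Both slow light chains were lower in level. Myl2 averaged 1030.0 ± 426 TPM with propionate, 1188 ± 173 TPM with butyrate, 1256 ± 539.5 TPM with the combination and 948 ± 384 TPM in control, with changes of 0.11 ± 0.35, 0.45 ± 0.35 and 0.43 ± 0.37. Myl3 averaged 335 ± 158 TPM with propionate, 369 ± 58.2 TPM with butyrate, 366 ± 176 TPM with the combination and 274 ± 123 TPM in control, with changes of 0.24 ± 0.38, 0.56 ± 0.38 and 0.42 ± 0.39. Mybpc1 and Mybpc2 are the slow and fast forms of myosin-binding protein C, which ties myosin to titin. Mybpc2 averaged 817 ± 425 TPM with propionate, 797 ± 158 TPM with butyrate, 690.2 ± 209 TPM with the combination and 564 ± 267 TPM in control, and it was next after Actn3 by p with propionate (log2 fold change 0.47 ± 0.39, adjusted p = 0.396, limma). Mybpc1 averaged 501 ± 284 TPM with propionate, 551 ± 86.7 TPM with butyrate, 437 ± 136 TPM with the combination and 448 ± 192 TPM in control. The myomesins Myom1 and Myom2, which link thick filaments at the M-line, had group means from 259.8 to 362 TPM and from 155 to 231 TPM.

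At the Z-disc, Tcap, telethonin, joins pairs of titin molecules, and it had the smallest p of the 43 genes with propionate and with the combination. Tcap lay at 497, 1433 and 2151 TPM with propionate, 931, 1229 and 2012 TPM with butyrate, 1710.2, 1850.0, 751, 883 and 1020.1 TPM with the combination and 338, 914 and 1106 TPM in control. Its log2 fold changes were 0.68 ± 0.35, 0.75 ± 0.35 and 0.63 ± 0.37, with unadjusted p = 0.0671, 0.0453 and 0.107 and adjusted p = 0.297, 0.119 and 0.536 (limma). The highest control library was at 1106 TPM, below the median of propionate and of butyrate, and the lowest libraries of each treated group were within the control range. Actn3, the α-actinin of fast fibres, averaged 2359.8 ± 1199 TPM with propionate, 2250.0 ± 495 TPM with butyrate, 2062 ± 716 TPM with the combination and 1568 ± 768 TPM in control, and it was second by p with propionate (0.53 ± 0.42, adjusted p = 0.379, limma). Actn2, the α-actinin of all striated fibres, had means of 234, 238 and 192 TPM in the treated groups and 216 TPM in control. Smpx is a small muscle protein of the costameres that anchor the Z-disc. Smpx lay at 116, 385 and 513 TPM with propionate, 315, 391 and 465 TPM with butyrate, 427, 364, 198, 241 and 415 TPM with the combination and 109.8, 252 and 401 TPM in control. Its change with butyrate was 0.73 ± 0.33 (unadjusted p = 0.0384, adjusted p = 0.113, limma), and with propionate and the combination 0.40 ± 0.33 and 0.45 ± 0.35. The Z-disc protein Ldb3 and the calsarcins Myoz1 and Myoz2, which bind calcineurin at the Z-disc, had changes between 0.04 and 0.57 in the 3 comparisons with control.

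Xirp1 and Xirp2 encode Xin repeat proteins that bind actin at the muscle-tendon junction and, in heart, between cells. Xirp2 lay at 53.4, 197 and 312 TPM with propionate, 181, 275 and 376 TPM with butyrate, 182, 170.2, 89.3, 95.4 and 202 TPM with the combination and 52.8, 126 and 333 TPM in control. Its change was 0.93 ± 0.42 with butyrate (unadjusted p = 0.0368, adjusted p = 0.112, limma) and 0.20 ± 0.42 and -0.01 ± 0.44 with propionate and the combination. The lowest butyrate library was above the control median, and control replicate 3 was the highest of control. Xirp1 had the widest spread of the 43 genes. Xirp1 lay at 5.10, 17.0 and 55.6 TPM with propionate, 15.9, 22.7 and 141 TPM with butyrate, 27.7, 54.5, 7.66, 10.7 and 22.1 TPM with the combination and 11.8, 22.9 and 146 TPM in control. Single libraries set its means: butyrate replicate 6 was at 141 TPM with the next at 25.9 TPM, and control replicate 3 was at 146 TPM with the next at 61.3 TPM. Its changes were -0.67 ± 0.64, -0.15 ± 0.64 and -0.68 ± 0.68, the lowest of the 43 genes in each comparison with control.

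Ttn encodes titin, the largest protein known. Ttn lay at 18.9, 116 and 172 TPM with propionate, 40.7, 119 and 165 TPM with butyrate, 49.1, 58.1, 21.4, 26.6 and 50.5 TPM with the combination and 12.6, 79.3 and 145 TPM in control. The 5 combination libraries were all below the control median and overlapped the lower control libraries. The changes of Ttn were 0.36 ± 0.58, 0.72 ± 0.58 and -0.60 ± 0.61 (adjusted p = 0.663, 0.325 and 0.595, limma). Set against Acta1 within each library, Ttn was at 2.87, 2.79, 2.02, 2.40 and 2.23 TPM per 1000 TPM of Acta1 in the combination libraries. The propionate libraries, sorted, were at 3.25, 3.51, 5.19, 5.59, 6.84 and 8.56, the butyrate libraries at 2.50, 2.68, 7.30, 8.08, 8.92 and 9.20 and the control libraries at 2.22, 2.56, 4.90, 6.60, 7.18 and 7.53. All 5 combination libraries were at 2.87 or less, as were 2 butyrate and 2 control libraries and no propionate library. The ratio was chosen after its values were seen, so it has no test.

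Neb, the next longest of the 43 genes, ran the same way, at 18.9 to 23.1 TPM per 1000 TPM of Acta1 with the combination, against 21.6 to 36.7 with propionate, 19.4 to 41.2 with butyrate and 19.1 to 37.9 in control. The longest annotated transcripts are 106824 bases for Ttn and 22489 bases for Neb, in GENCODE release M21. The median log2(TPM + 1) of 303 tested genes outside the 43 with a transcript over 10000 bases, minus that of all tested genes outside the 43, was -0.59 to -0.43 with the combination, -0.52 to -0.34 with propionate, -0.58 to -0.28 with butyrate and -0.50 to -0.29 in control. The 9 libraries with a Ttn ratio of 6.60 or more had the 9 highest of these values, a cut chosen after the values were seen. Below it the order did not hold. Combination replicate 6 had the next highest value, -0.43, at a ratio of 2.23. Propionate replicates 2 and 6 were lower, at -0.50 and -0.52, with ratios of 5.19 and 5.59. Coverage of long transcripts can differ between libraries, and its part in the titin values was not tested. Ttn was summed over 24 transcript rows and Neb over 14, and the leading row of Ttn held 30.0 to 49.2% of its TPM.

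**Figure D3:**
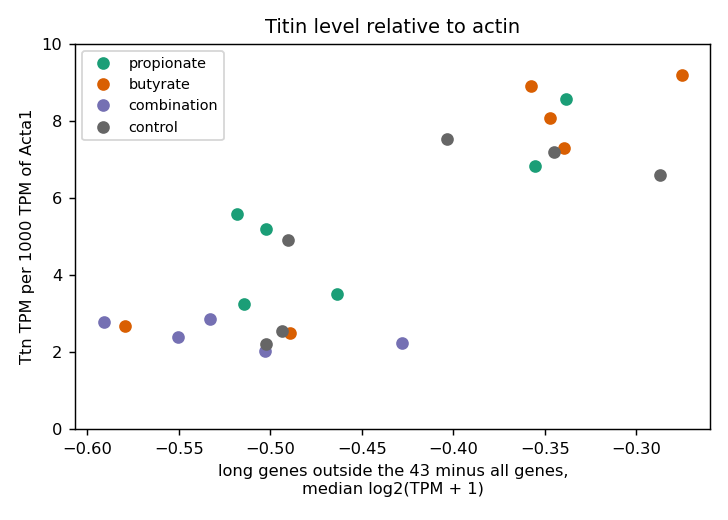
TPM of Ttn per 1000 TPM of Acta1 in each of the 23 libraries, against the median log2(TPM + 1) of 303 other long genes minus that of all genes outside the 43. The 5 combination libraries are at 2.02 to 2.87 TPM per 1000, and libraries with the lowest values for other long genes are at the left.

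In excitation-contraction coupling, Cacna1s is the voltage sensor of the fibre membrane, Cacng1 its γ subunit, and Ryr1 the calcium release channel it opens. Cacna1s lay at 64.0, 271 and 344 TPM with propionate, 156, 209.7 and 254 TPM with butyrate, 220.3, 239, 110.4, 115 and 236 TPM with the combination and 57.6, 176 and 275 TPM in control. Ryr1 lay at 31.8, 132 and 211 TPM with propionate, 69.2, 108 and 158 TPM with butyrate, 78.7, 116, 53.3, 50.6 and 97.2 TPM with the combination and 23.3, 90.1 and 133 TPM in control. Treated and control libraries overlapped over most of their ranges. The changes of Cacna1s were 0.37 ± 0.39, 0.47 ± 0.39 and 0.25 ± 0.41 and those of Ryr1 0.43 ± 0.44, 0.54 ± 0.44 and 0.04 ± 0.47. Cacng1 had means of 48.0, 49.2 and 50.7 TPM in the treated groups and 40.3 TPM in control. Trdn, triadin, anchors calsequestrin to the release channel, and it had the smallest p of the 43 genes with butyrate. Trdn lay at 67.3, 260.2 and 353 TPM with propionate, 182, 276 and 441 TPM with butyrate, 229.8, 212, 112, 134 and 229 TPM with the combination and 63.2, 154 and 302 TPM in control. The lowest butyrate library was above the control median and the highest control library above the butyrate median. Its change with butyrate was 0.94 ± 0.41 (95% interval 0.09 to 1.78, unadjusted p = 0.0314, adjusted p = 0.107, limma), and 0.41 ± 0.41 and 0.24 ± 0.43 with propionate and the combination.

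Jph1, junctophilin, holds the fibre membrane and the calcium store together, and Casq1 and Casq2, fast and slow calsequestrin, buffer calcium inside the store. Their changes lay between -0.12 and 0.52. Atp2a1 is the pump that returns calcium to the store in fast fibres. Atp2a1 lay at 1759.5, 6303 and 10852 TPM with propionate, 3675, 5492 and 6778 TPM with butyrate, 5321, 6211, 3095, 3136 and 6136 TPM with the combination and 1367, 4660.1 and 6994 TPM in control. Pvalb, parvalbumin, is a calcium buffer of the fastest fibres. Pvalb lay at 1915, 8280.4 and 9953 TPM with propionate, 4481, 7226 and 8894 TPM with butyrate, 7159, 8495, 3484, 3825 and 9564 TPM with the combination and 1962, 5099 and 8161 TPM in control. Both genes had their lowest libraries in propionate and control. Their changes were 0.40 ± 0.40, 0.44 ± 0.40 and 0.28 ± 0.42 for Atp2a1 and 0.40 ± 0.41, 0.61 ± 0.41 and 0.44 ± 0.43 for Pvalb. Sln, sarcolipin, inhibits the calcium pump. Sln lay at 12.1, 46.1 and 69.8 TPM with propionate, 23.5, 40.8 and 73.8 TPM with butyrate, 78.3, 72.5, 30.4, 44.5 and 37.1 TPM with the combination and 8.31, 33.2 and 78.4 TPM in control. Its change with the combination, 0.73 ± 0.49, was the largest of the 43 genes there and second by p (adjusted p = 0.536, limma). With propionate and butyrate it was 0.43 ± 0.47 and 0.47 ± 0.47.

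Among the energy genes, Ckm, muscle creatine kinase, regenerates ATP from creatine phosphate. Ckm lay at 2973, 11881 and 15319 TPM with propionate, 7238, 10088 and 11091 TPM with butyrate, 9571, 11402, 5455, 5642 and 11136 TPM with the combination and 2663, 7977 and 11982 TPM in control. Mb, myoglobin, stores oxygen. Mb lay at 566, 2229 and 2752 TPM with propionate, 1488, 2113 and 2598 TPM with butyrate, 2230.4, 2315, 992, 1391 and 2493 TPM with the combination and 629, 1575 and 2517 TPM in control. The ranges overlapped in every group. The changes of Ckm were 0.37 ± 0.37, 0.48 ± 0.37 and 0.27 ± 0.39 and those of Mb 0.29 ± 0.36, 0.56 ± 0.36 and 0.36 ± 0.38. Ckmt2, the mitochondrial creatine kinase, Pygm, the muscle glycogen phosphorylase, and Eno3, muscle enolase, had changes between 0.19 and 0.49.

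With propionate against control, 40 of the 43 genes had a log2 fold change above 0, against 20.7% of all 15163 genes. The median of the 43 was 0.31 (from -0.67 for Xirp1 to 0.68 for Tcap), where the median of all genes was -0.30. None of the 43 genes was called by limma at an adjusted p under 0.05 (0% of all genes were). At an unadjusted p under 0.05, 0 of the 43 were higher, beside 0.646% of all genes, and 0 were lower, beside 10.8% of all genes. The 95% interval spanned 0 for all 43, and the 6 propionate and 6 control libraries overlapped for all 43, where 0.0396% of all genes (6 of 15163) had libraries that did not overlap. Leaving out control replicate 2 or 3 put the median of the 43 at 0.05 or 0.49, and leaving out propionate replicate 1, 2, 3 or 5 put it at 0.19, 0.15, 0.61 or 0.19. Weights estimated per library, which gave propionate replicates 3 and 4 weights of 0.116 and 0.166, made 35 of the 43 genes pass, all higher, among 11484 of all genes.

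With butyrate against control, 42 of the 43 genes were above 0, against 21.2% of all genes, with a median of 0.49 (all genes -0.38). The lowest was Xirp1 at -0.15 and the highest Trdn at 0.94. None was called by limma at an adjusted p under 0.05 (0% of all genes were), and the smallest adjusted p was 0.107. At an unadjusted p under 0.05, 4 were higher, Trdn, Xirp2, Smpx and Tcap, beside 2.08% of all genes, and 0 were lower, beside 38% of all genes. The 95% interval spanned 0 for the other 39. With combination replicate 5 in the fit, which shares 1 estimate of the spread over all groups, 0 of the 43 were higher at an unadjusted p under 0.05, beside 1.19% of all genes. Without control replicate 3, Xirp2 (1.18 ± 0.41, adjusted p = 0.0309), Trdn (1.14 ± 0.41, adjusted p = 0.0334) and Smpx (0.89 ± 0.34, adjusted p = 0.0393) passed in limma. These 3 of the 43 were a smaller part than the 6685 of all 15163 genes that passed there. Without control replicate 2 the median of the 43 was 0.23. Weights per library made 22 of the 43 pass, beside 10371 of all 15163 genes. A replicate block by the library number made 17 of the 43 pass, beside 8858 of all 15163 genes. Both were smaller parts than those of all genes.

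With the combination against control, 38 of the 43 genes were above 0, against 30.2% of all genes, with a median of 0.28 (all genes -0.18). The values ran from -0.68 for Xirp1 to 0.73 for Sln. With combination replicate 5 in the fit, 0 of the 43 were above 0 and the median was -1.12, so that library turned the direction of the median. Tcap was then at -1.07 ± 1.19, Sln at -0.20 ± 0.77 and Ttn at -1.44 ± 0.80. None was called by limma in either fit (0% of all genes were), and at an unadjusted p under 0.05 0 were higher, beside 4.23% of all genes, and 0 lower, beside 4.54%. Leaving out control replicate 2 or 3 gave a median of 0.02 or 0.44, and leaving out combination replicate 3 or 6 gave 0.44 or 0.16. Weights per library made 6 of the 43 pass, a smaller part than the 6772 of all 15163 genes that passed.

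The 3 comparisons with control share the 6 control libraries. TPM is a share of a fixed total, so a rise of abundant genes lowers the rest, and its part in these medians was not tested. Scaling by the median of ratios puts the median of all genes close to 0 by construction. It was -0.01 with propionate, -0.02 with butyrate and -0.01 with the combination. Under this scaling the median of the 43 genes was 0.66, 0.93 and 0.47. Without it all 3 medians were already above 0 and above that of all genes, so the scaling could not turn their direction.

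**Figure D4:**
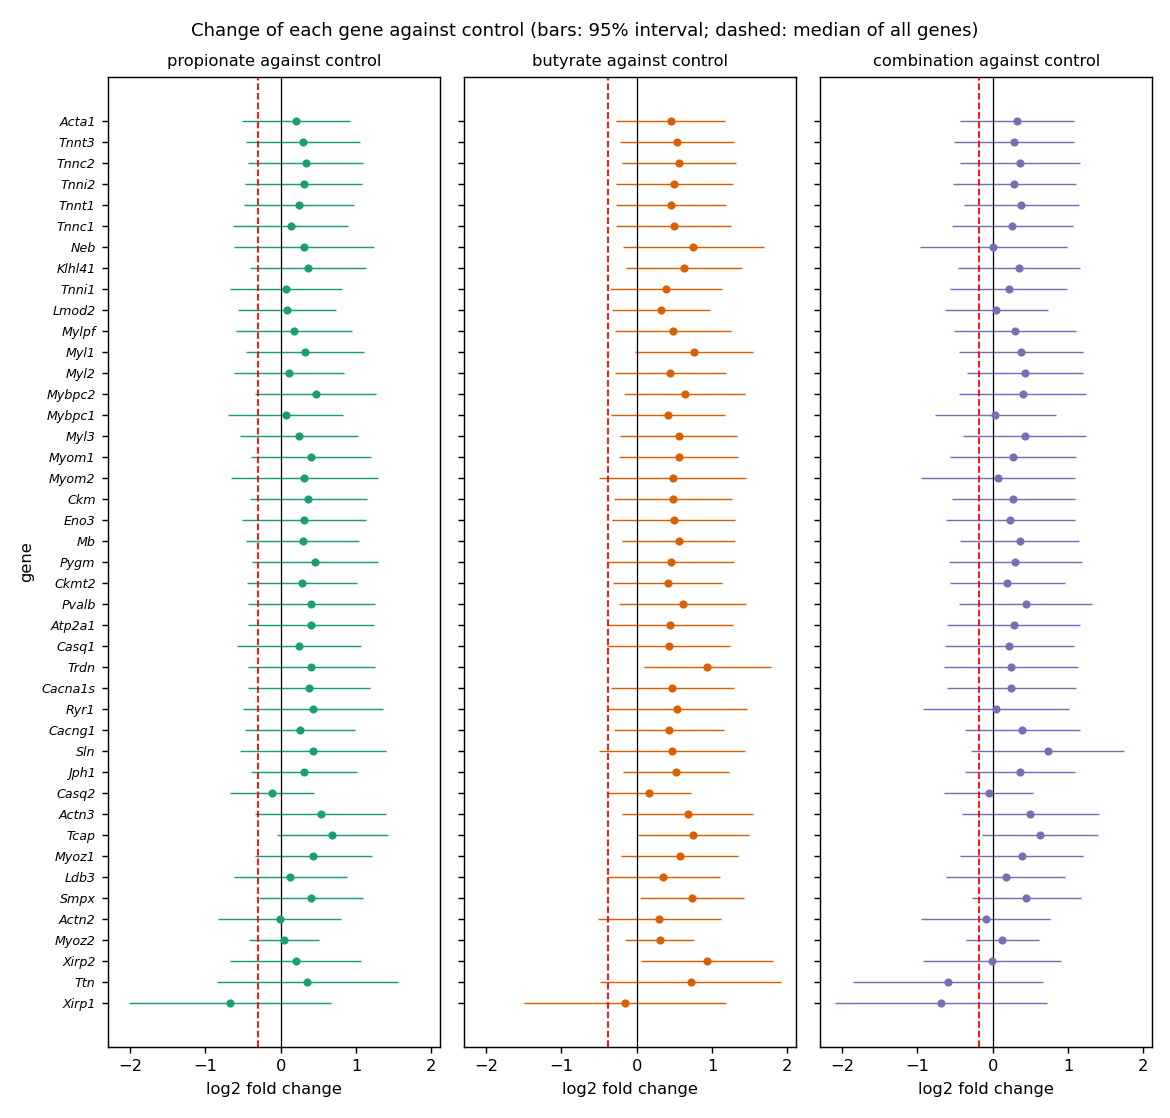
Log2 fold change of each of the 43 genes against control with its 95% interval, for propionate, butyrate and the combination without replicate 5, with the median of all genes as a dashed line. Most points lie above 0 and to the right of the dashed line, while the intervals span 0 for 43, 39 and 43 genes.

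With the combination against propionate, 18 of the 43 genes were above 0, against 74.9% of all genes, and the median was -0.02 (all genes 0.12). Its sign changed with the library left out. It was 0.06 to 0.15 without propionate replicate 1, 2, 5 or 6 or combination replicate 3 or 4, and -0.32 to -0.11 without propionate replicate 3 or 4 or combination replicate 1, 2 or 6. None was called by limma at an adjusted p under 0.05 (0% of all genes were), and at an unadjusted p under 0.05 0 were lower, beside 0.185% of all genes, and 0 higher, beside 3.86%. Ttn had the largest change, -0.95 ± 0.61 (95% interval -2.21 to 0.31). With weights per library it was the only member past the threshold (-1.48 ± 0.43, adjusted p = 0.0284, limma), beside 2718 of all 15163 genes. With combination replicate 5 the median was -1.39 and Ttn was at -1.80 ± 0.80 (adjusted p = 0.546, limma).

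With the combination against butyrate, 1 of the 43 genes was above 0, against 80.6% of all genes, and the median was -0.21 (all genes 0.23). At an unadjusted p under 0.05, 2 were lower, beside 0.402% of all genes, and 0 higher, beside 5.99%. Those lower were Ttn at -1.32 ± 0.61 (unadjusted p = 0.0413, adjusted p = 0.68, limma) and Xirp2 at -0.94 ± 0.44 (unadjusted p = 0.0434, adjusted p = 0.68, limma). None was called at an adjusted p under 0.05 (0% of all genes were). The median was -0.03 and -0.11 without combination replicates 3 and 4, -0.32 and -0.34 without combination replicates 2 and 6, and -1.63 with combination replicate 5. With that library Ttn was at -2.16 ± 0.80 and Xirp2 at -2.13 ± 0.89 (adjusted p = 0.317 for both, limma). Median-of-ratios scaling gave -0.46, with all genes at 0.03.

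With butyrate against propionate, 42 of the 43 genes were above 0, against 29.7% of all genes, and the median was 0.23 (all genes -0.09). None was called by limma at an adjusted p under 0.05 (0% of all genes were), and at an unadjusted p under 0.05 0 were higher, beside 0.29% of all genes, and 0 lower, beside 0.864%. The largest difference was that of Xirp2, 0.74 ± 0.42 with a 95% interval of -0.13 to 1.61, and all 43 intervals spanned 0. The doses of the acids are not given, so a matched comparison cannot be claimed. Without propionate replicates 3 and 4 the median was -0.06 and 0.09, without propionate replicate 2 0.39, and with weights per library -0.15.

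The interaction sets the step between combination and propionate against the step between butyrate and control, as the first minus the second, and asks whether butyrate acts alike with and without propionate. It was above 0 for 1 of the 43 genes, against 82.6% of all genes, with a median of -0.53 (all genes 0.52). None was called by limma at an adjusted p under 0.05 (0% of all genes were), and at an unadjusted p under 0.05 0 were lower, beside 0.521% of all genes, and 0 higher, beside 24.5%. Ttn was lowest at -1.67 ± 0.84 (adjusted p = 0.201, limma), then Xirp2 at -1.14 ± 0.61 and Trdn at -1.10 ± 0.59. The median was -0.28 without control replicate 2, -0.83 without propionate replicate 3, -1.93 with combination replicate 5 and -1.13 under median-of-ratios scaling, with all genes at 0.04. Weights per library made 26 of the 43 pass, a smaller part than the 10697 of all 15163 genes that passed.

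The 43 genes varied together. Over the 23 libraries the SD of log2 TPM of a gene had a median of 0.67 (0.39 to 1.19 over the genes). Taken relative to the median of the 43 in the same library, the SD had a median of 0.245, from 0.124 for Mybpc1 to 1.05 for Xirp1. The largest of these SDs after that of Xirp1 were those of Ttn (0.66), Sln (0.64), Trdn (0.42), Tcap (0.41) and Xirp2 (0.41). Tcap relative to that median was at a mean log2 ratio of 1.46 ± 0.34 with propionate, 1.18 ± 0.48 with butyrate, 1.44 ± 0.43 with the combination and 0.90 ± 0.12 in control (SD). Its libraries ran from 0.79 to 1.71, 0.57 to 2.01 and 0.72 to 1.78 in the treated groups and 0.73 to 1.04 in control, so all ranges overlapped. Tcap was picked here after its values were seen, so this has no test. The smallest SDs relative to the median were those of Mybpc1, Tnnt3, Acta1 and Ckm.

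Isoform use was described with 8 pairs of genes named as slow and fast isoforms, as the share of the slow gene in the summed TPM of its pair. Fast isoforms predominated in every pair and every group. The slow share of troponin T was 3.74%, 3.69% and 4.18% with propionate, butyrate and the combination, against 3.89% in control. That of troponin I was 2.72%, 2.95% and 3.08%, against 3.21%, and that of troponin C 4.20%, 4.55% and 4.51%, against 4.77%. In the light chains, Myl3 held 3.72%, 3.42% and 4.09% of the essential pair, against 4.00% in control, and Myl2 7.61%, 7.73% and 8.69% of the regulatory pair, against 7.91%. Casq2 held 3.55%, 3.69% and 3.65% of calsequestrin, against 4.44%, and Myoz2 17.0%, 17.9% and 18.0% of the calsarcins, against 21.1%.

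Myosin-binding protein C was the most even of the 8 pairs, and its share had the largest difference from control in percentage points in each treated group. Relative to the control mean, the shares of Casq2 and Myoz2 fell further in each treated group. The share of Mybpc1 stood far above those of the slow troponins and light chains, so it is not read as a share of slow fibres. Mybpc1, the slow form, held 38.0 ± 3.24% of the pair with propionate (SD, n = 6), 41.0 ± 2.71% with butyrate (n = 6), 38.7 ± 1.46% with the combination (n = 5) and 44.8 ± 3.25% in control (n = 6). The 5 combination libraries were at 40.7, 38.2, 36.8, 39.3 and 38.4%, the propionate libraries from 33.5 to 41.6%, the butyrate libraries from 37.9 to 44.6% and the control libraries from 39.5 to 48.5%. The treated library was the higher in 2 of 36 pairs of libraries with propionate, 6 of 36 with butyrate and 1 of 30 with the combination. Two-sided exact permutation tests gave p = 0.00866, 0.0563 and 0.00866, where the smallest possible was 0.00216, and after Benjamini-Hochberg adjustment over the 24 tests of 8 pairs and 3 comparisons p = 0.104, 0.450 and 0.104. None of the 24 tests passed 0.05, and the other 7 pairs had adjusted exact p of 0.508 or more. In combination replicate 5, where the pair summed to 1.16 TPM, the share was 71.6%, and with it the smallest adjusted exact p of the combination comparison was 0.508.

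**Figure D5:**
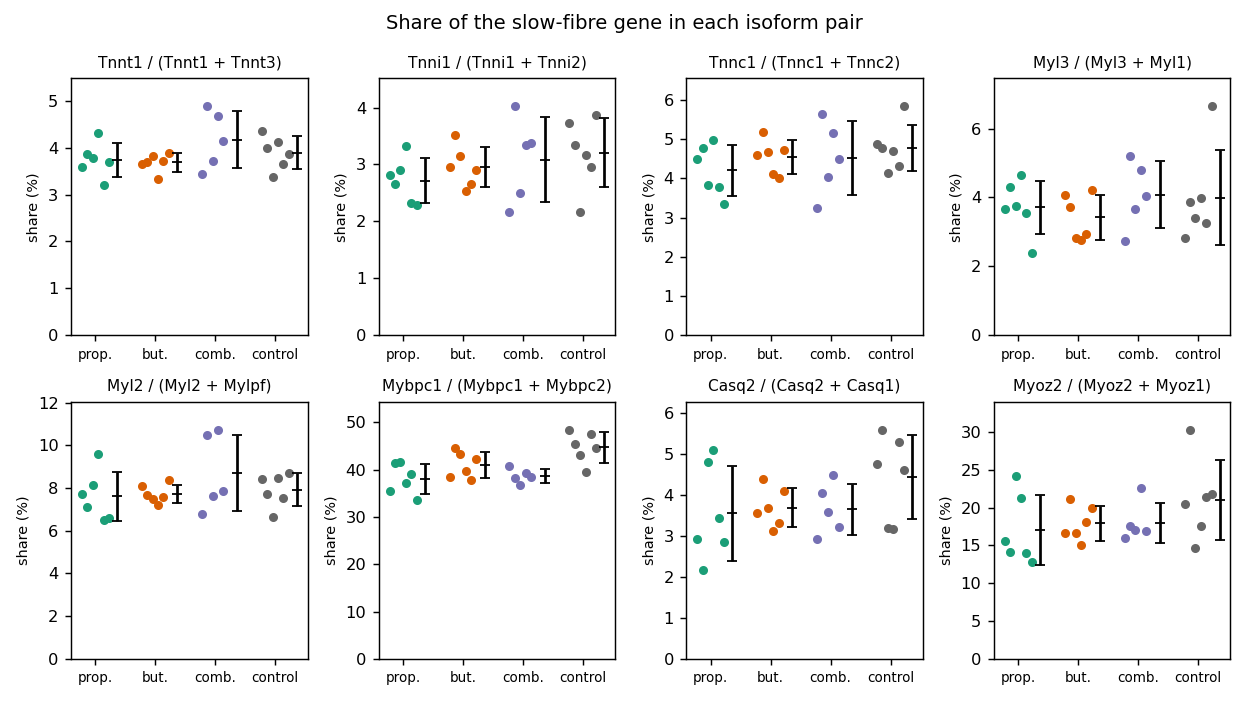
Share of the gene named as slow in the summed TPM of each of 8 isoform pairs (percent, axes from 0), 1 point per library by group. Mean and SD are beside the points, and combination replicate 5 is left out. Mybpc1 is the pair whose control libraries, at 39.5 to 48.5%, sit highest relative to the treated libraries; the groups overlap in all 8 pairs.

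Other genes of muscle, in 6 lists, were read in the same fit, and none of their tested genes was called in a comparison with control. Of 20 other sarcomere genes, 14 were above 0 with propionate, 19 with butyrate and 15 with the combination. Cmya5, a titin-binding protein of the Z-disc region, averaged 122, 134 and 87.4 TPM with propionate, butyrate and the combination, against 85.1 TPM in control, with changes of 0.46 ± 0.41, 0.79 ± 0.41 and 0.18 ± 0.43. Lmod3, a leiomodin of skeletal muscle, averaged 92.2, 95.4 and 79.0 TPM with propionate, butyrate and the combination, against 70.8 TPM in control. Of 15 other energy genes, 15, 14 and 14 were above 0. Fabp3, which binds fatty acids, averaged 475, 475 and 392 TPM with propionate, butyrate and the combination, against 344 TPM in control, and Phkg1, a phosphorylase kinase subunit, 173, 165 and 139 TPM with propionate, butyrate and the combination, against 114 TPM in control.

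Of 16 other genes of excitation-contraction coupling and the neuromuscular junction, 14, 15 and 13 were above 0. Chrnb1, the β subunit of the acetylcholine receptor, was below control in all 3, at 19.3, 19.7 and 19.3 TPM with propionate, butyrate and the combination, against 26.1 TPM in control. Its log2 fold changes were -0.42 ± 0.18, -0.42 ± 0.18 and -0.42 ± 0.19 (unadjusted p = 0.0324, 0.0326 and 0.0388, adjusted p = 0.297, 0.108 and 0.536, limma). The medians of all genes were -0.30, -0.38 and -0.18. At an unadjusted p under 0.05, 10.8%, 38% and 4.54% of all genes were lower. Musk, the kinase that clusters these receptors, averaged 1.47, 1.84 and 1.90 TPM with propionate, butyrate and the combination, against 1.36 TPM in control. Of 9 membrane and cytoskeletal genes of the fibre, 7, 7 and 8 were above 0. Dmd, dystrophin, had changes of -0.39 ± 0.28, -0.46 ± 0.28 and -0.43 ± 0.29, and Sgcb, β-sarcoglycan, of 0.28 ± 0.25, 0.44 ± 0.25 and 0.14 ± 0.27. Those of Dmd stand beside the same medians of all genes.

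Of 10 myogenic and satellite cell regulators, 7, 8 and 9 were above 0. Mef2c, a MEF2 factor, averaged 84.6, 106 and 82.1 TPM with propionate, butyrate and the combination, against 73.6 TPM in control, with a change of 0.52 ± 0.19 with butyrate (unadjusted p = 0.0133, adjusted p = 0.0959, limma). Six4, a homeobox factor, averaged 4.13, 4.03 and 3.57 TPM with propionate, butyrate and the combination, against 3.06 TPM in control. Of 12 genes of atrophy, denervation and immature fibres, 10 were tested, and 4, 6 and 3 were above 0. At an unadjusted p under 0.05, 1 was higher and 1 lower with propionate, beside 0.646% and 10.8% of all genes. With butyrate 1 was higher and 2 lower, beside 2.08% and 38% of all genes. With the combination there were 0 either way, beside 4.23% of all genes higher and 4.54% lower. The higher one was Fbxo32, atrogin-1, a ubiquitin ligase of muscle atrophy, chosen after its values were seen, which averaged 46.3, 40.9 and 34.7 TPM with propionate, butyrate and the combination, against 24.9 TPM in control. Its changes with propionate and butyrate were 0.84 ± 0.35 and 0.76 ± 0.35 (adjusted p = 0.297 and 0.116, limma). Foxo1 and Foxo3, factors that drive atrophy genes and are also expressed outside muscle, had butyrate changes of -0.60 ± 0.19 (adjusted p = 0.0959, limma) and -0.75 ± 0.25 (adjusted p = 0.0959, limma). Foxo1 averaged 5.90, 4.91 and 7.29 TPM with propionate, butyrate and the combination, against 7.995 TPM in control, and Foxo3 8.48, 6.32 and 8.67 TPM with propionate, butyrate and the combination, against 11.5 TPM in control.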

How the data were processed

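The authors deposited 1 table of TPM with 149132 transcript rows and 24 library columns, each summing to 999999 to 1000001 TPM. Per the submitters' processing notes, fastp, HISAT2, StringTie and build mm39 were used, with no version, setting or annotation stated. TRIzol extraction and stranded libraries of polyadenylated RNA are given in the labels' protocols. TPM keeps no depth, so depth is unknown and no counting interval is given.

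Rows were summed by gene name. Rows without a gene name (1001, holding 0.174 to 0.470% of TPM) stayed out. Near-identical paralogs and transcripts shared between rows of a gene are uncertain, since the handling of shared reads is not given. The 15163 genes that reached 1 TPM in 6 or more libraries were fitted as log2(TPM + 1), a pseudocount of 1, with limma 3.58.1 in R 4.3.3 (empirical Bayes with trend and robust settings). The fit held all groups, 23 libraries, without combination replicate 5, and 7 comparisons were read from it. P-values are two-sided, adjusted by Benjamini-Hochberg over the 15163 genes, and called under 0.05. TPM and shares are given with their SD and log2 fold changes with their SE. The fit was checked on simulated data with errors drawn separately for each gene. Genes of these libraries varied together, so that check cannot speak to false calls here. Isoform shares were compared by exact permutation tests over libraries, for pairs summing to at least 1 TPM.

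The members, the lists and the tests were chosen with earlier results of these data known. By the naming rule, 21 members and the 3 of smallest p in each comparison with control have values in every group, every member is named, and each pathway list is shown by its 2 genes of smallest p. Promoter sequences are from RefSeq, build GRCm38.p6. Other settings tried were all 24 libraries, another pseudocount, other filters, other scalings, only the compared groups, plain moderation, weights per library, blocks by 2 numberings and each library left out.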

Additional observations from a re-analysis of the deposited data

Results flagged for a closer look

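Single libraries stood far from the rest of their group in 4 of 208 sets of values, or 1.92%. For independent, normally spread sets chance alone gives about 1 in 20. These sets share libraries and genes, so the rates cannot be compared as a test. Xirp1 was at 141 TPM in butyrate replicate 6, with the next butyrate library at 25.9 TPM. It was at 146 TPM in control replicate 3, with the next control library at 61.3 TPM. The slow share of calsarcin, Myoz2 of Myoz2 and Myoz1, was 22.6% in combination replicate 4, with the next combination library at 17.6%. The slow share of the essential light chain, Myl3 of Myl3 and Myl1, was 6.66% in control replicate 6, with the next control library at 3.98%.

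Combination replicate 5, which is outside the comparisons, held signal of other tissues above every control library. Its lymphocyte markers summed to 1159 TPM, against at most 25.7 TPM in control, and its adipocyte markers to 18311 TPM, against at most 2264 TPM in control.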

How the results depend on the processing

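Of 408 values under other settings, 396 stayed at 0 genes or isoform pairs called, or moved by less than the spread between replicates. Direction was not part of this count, so a median near 0 could change its sign and still be among the 396. The medians for the combination against propionate and for butyrate against propionate changed sign under some settings, as given above. With all 24 libraries the median log2 fold change of the 43 genes was -1.12 for the combination against control, -1.39 against propionate, -1.63 against butyrate and -1.93 for the interaction. With weights estimated per library (0.116 to 6.32), 35, 22 and 6 of the 43 genes passed with propionate, butyrate and the combination against control. For the combination against propionate 1 passed, and for the interaction 26. Many of all genes passed under the same weights too, by the counts given with each comparison above. The cause was not tested. Leaving out 1 library gave 0 to 3 genes passing for butyrate against control, with 3 only without control replicate 3. Many of all genes passed there too, by the count given above, and the cause was not tested. Without mitochondrial transcripts the 43 genes took on average 15.1% of TPM with propionate, 15.96% with butyrate, 13.5% with the combination and 11.1% in control, higher shares by construction. Same-numbered libraries had a correlation of their deviations over 0.1 in 15 of 33 pairs by title number and 16 of 24 by library number, so not in every pair, and 3 of 23 libraries correlated best with one of their own number under either numbering. The numbers were not taken as pairs. A replicate block by the library number made 17 genes pass for butyrate against control, among 8858 of all genes, and 0 in the other 6 comparisons, and a replicate block by the title number made 0 pass in all 7. Depth is unknown, so what it limits cannot be stated.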
